A study of Mus musculus with 12 samples.

Results

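Far1 and 5 other genes of peroxisomal ether lipid synthesis (Gnpat, Agps, Pex7, Pex5 and Pex19) were followed across 12 RNA-seq libraries of regulatory T cells (Tregs). Far1 was picked because earlier work on these counts showed it lower in the libraries titled KO, and the other 5 were listed with it by pathway. All 6 were found by gene symbol among the 26609 genes of the count table, and all 6 were among the 13692 genes with enough counts to be tested. The cells were singlet CD4+CD25hiCD127lo T cells, sorted from mesenteric lymph nodes of mice that received no treatment. The groups were KO female and KO male, of strain SAMP/YitFC-ERb-KO and without ESR2 in any tissue, and WT female and WT male, of strain SAMP/YitFC-WT, with 3 libraries each. SAMP/YitFC mice develop ileitis spontaneously, and both genotypes share that background. The labels give neither the age of the mice nor whether a library came from 1 mouse or from a pool, so p-values measure the spread between these libraries, which may be technical.

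Ether lipids carry a fatty alcohol in ether linkage at the first carbon of glycerol, and plasmalogens are their most abundant form in mammalian membranes. Their synthesis starts in peroxisomes. GNPAT puts an acyl chain on dihydroxyacetone phosphate, AGPS exchanges that chain for a fatty alcohol, and FAR1, a fatty acyl-CoA reductase anchored in the peroxisomal membrane, makes the fatty alcohol and is held to set the rate of the pathway in cultured mammalian cells. The enzymes reach the peroxisome by different routes. PEX5 carries matrix proteins with a targeting signal at the C terminus, among them GNPAT. PEX7 carries those with a signal near the N terminus, among them AGPS, and PEX19 delivers membrane proteins. In humans, loss of function of GNPAT, AGPS or PEX7 causes rhizomelic chondrodysplasia punctata.

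Library totals were 10200500 to 14786400 counts in KO and 13439600 to 16748400 counts in WT. The Xist and Y-linked counts of 4 libraries (KO female 1, KO male 1, KO male 2 and WT female 2) were opposite to the titled sex. Esr2 counts did not follow the titled genotype either, with 161, 94 and 128 in KO female 1, 2 and 3, 8, 2 and 95 in KO male 1, 2 and 3, 0, 133 and 159 in WT female 1, 2 and 3, and 0, 1 and 14 in WT male 1, 2 and 3. Which part of Esr2 is deleted is not stated, so reads of a disrupted allele could be counted too. KO, WT, female and male below are what the titles say, and all directions rest on these titles. Of the 8 Treg markers examined, all were detected, and their summed level was 4965 to 6264 CPM (counts scaled to a common library total) in KO and 4680 to 5637 CPM in WT libraries. Foxp3, the lineage factor of Tregs, was at 740 ± 143 CPM in the KO libraries and 770 ± 109 CPM in the WT libraries (SD, n = 6 each).

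Far1 lies on chromosome 7 (113513834 to 113571511, plus strand, GRCm38). It had 80.5, 77.4 and 72.96 CPM in KO female 1, 2 and 3, and 72.6, 78.5 and 94.6 CPM in KO male 1, 2 and 3. In the WT libraries it had 147, 151 and 152 CPM in WT female 1, 2 and 3, and 133, 135 and 174 CPM in WT male 1, 2 and 3. Each of the 6 KO libraries was below each of the 6 WT libraries, with KO male 3 the highest KO library and WT male 1 the lowest WT library. Raw counts of Far1 were 800 to 1193 in KO and 1958 to 2719 in WT libraries.

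The mean level of Far1 was 79.4 ± 8.07 CPM in KO and 149 ± 14.6 CPM in WT libraries (SD, n = 6 each). Averaged over the sexes, it was at 0.534 of its WT level in KO libraries, a log2 fold change of -0.90 (SE 0.11, 95% interval -1.14 to -0.67). No test is given for it, because this contrast is what Far1 was chosen on. The estimate and its interval take no account of that choice. Within the titled sexes the log2 fold changes were -0.96 (SE 0.16) in females and -0.85 (SE 0.15) in males. Whether Far1 goes with the Esr2 counts over all libraries was not tested. As examples picked after the data were seen, WT female 1 (0 Esr2 counts) and WT female 3 (159) had 147 and 152 CPM of Far1. KO male 2 (2 Esr2 counts) and KO female 1 (161) had 78.5 and 80.5 CPM of Far1. In a whole sorted population, fewer cells that express a gene and less of its RNA per cell cannot be told apart.

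The sequence around the start of Far1 is shown because Far1 is the member that differed, and because the study concerns a receptor that binds DNA. It is the RefSeq window of 250 bases before to 50 bases after the start (GRCm38.p6, chr7:113513584-113513883, plus strand), with the pentamer CCAAT and its reverse complement in capitals.
Far1 promoter: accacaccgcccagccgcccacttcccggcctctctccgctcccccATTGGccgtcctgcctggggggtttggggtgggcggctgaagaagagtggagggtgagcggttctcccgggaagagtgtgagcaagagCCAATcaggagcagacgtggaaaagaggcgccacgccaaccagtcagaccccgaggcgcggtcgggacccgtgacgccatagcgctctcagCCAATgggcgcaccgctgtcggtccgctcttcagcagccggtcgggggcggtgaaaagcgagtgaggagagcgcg
The window was 67.7% G or C, against a median of 52.7% over all windows, and held 3 matches to CCAAT, which 3.35% of the 32544 distinct windows equal or exceed. At least 1 match was present in 37.4% of them. The estrogen response half-site GGTCA, searched on both strands, had no match in the Far1 window and was present in 40.5% of all windows. The full palindrome (GGTCA, any 3 bases, then TGACC), which contains that half-site, had none either and occurred in 0.0707% of windows. Among the other members with a window, CCAAT had 0 matches for Gnpat, 1 for Agps and 2 for Pex7, and 0, 1 and 1 in the 3 windows of Pex5. GGTCA had 1 match in 1 window of Pex5 and none for Gnpat, Agps or Pex7. Bases outside these windows were not searched, and binding of the receptor was not tested.

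The enzymes that act beside FAR1 overlapped between genotypes. Gnpat, the acyltransferase of the first step (chromosome 8, 124863033 to 124890057), had 181, 151 and 160 CPM in KO female 1, 2 and 3 and 120, 176 and 95.8 CPM in KO male 1, 2 and 3. It had 161, 124 and 140 CPM in WT female 1, 2 and 3 and 135, 130 and 143 CPM in WT male 1, 2 and 3. The groups overlapped, with 2 KO libraries below every WT library (KO male 1 and KO male 3) and 2 above every WT library (KO male 2 and KO female 1). The log2 fold change of Gnpat, KO minus WT averaged over the sexes, was 0.08 (SE 0.14, 95% interval -0.21 to 0.37, edgeR adjusted p = 0.830).

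Agps, the alkyl synthase that places the fatty alcohol made by FAR1 (chromosome 2, 75832177 to 75931350), had 89.4, 123 and 69.0 CPM in KO female 1, 2 and 3 and 96.1, 67.1 and 95.5 CPM in KO male 1, 2 and 3. In the WT libraries it had 117, 117 and 113 CPM in WT female 1, 2 and 3 and 76.8, 93.4 and 105 CPM in WT male 1, 2 and 3. The highest library of all was KO female 2, and the lowest pair were KO male 2 and KO female 3, so the KO libraries spanned the WT range on both sides. The log2 fold change of Agps was -0.20 (SE 0.15, 95% interval -0.51 to 0.12, edgeR adjusted p = 0.559).

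The 3 peroxins overlapped between genotypes as well. Pex7, the receptor for the N-terminal signal of AGPS (chromosome 10, 19853900 to 19907689, minus strand), had 26.0, 26.7 and 27.8 CPM in KO female 1, 2 and 3, 22.1, 24.4 and 12.9 CPM in KO male 1, 2 and 3, 22.3, 28.2 and 20.3 CPM in WT female 1, 2 and 3, and 26.1, 31.5 and 25.3 CPM in WT male 1, 2 and 3. KO male 3 was lowest and apart from the rest, and the other 5 KO libraries lay inside the WT range. The log2 fold change of Pex7 was -0.15 (SE 0.16, 95% interval -0.50 to 0.21, edgeR adjusted p = 0.716).

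Pex5, the receptor for the C-terminal signal of GNPAT (chromosome 6, 124396816 to 124415067, minus strand), had 65.1, 43.9 and 59.9 CPM in KO female 1, 2 and 3, 28.8, 64.6 and 47.4 CPM in KO male 1, 2 and 3, 55.0, 50.4 and 40.4 CPM in WT female 1, 2 and 3, and 53.2, 40.3 and 47.0 CPM in WT male 1, 2 and 3. KO male 1 was the lowest library and 3 KO libraries were above every WT library. Its log2 fold change was 0.11 (SE 0.18, 95% interval -0.27 to 0.49, edgeR adjusted p = 0.821). Pex19, the chaperone of membrane proteins (chromosome 1, 172126755 to 172136493), had 57.8, 47.4 and 59.6 CPM in KO female 1, 2 and 3, 41.3, 59.4 and 51.8 CPM in KO male 1, 2 and 3, 49.9, 49.6 and 49.5 CPM in WT female 1, 2 and 3, and 50.6, 57.7 and 65.4 CPM in WT male 1, 2 and 3. The 3 WT female libraries were nearly equal and all below the WT males, while both KO groups had libraries above and below the WT females. The log2 fold change of Pex19 was -0.02 (SE 0.12, 95% interval -0.28 to 0.24, edgeR adjusted p = 0.954).

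**Figure D1:**
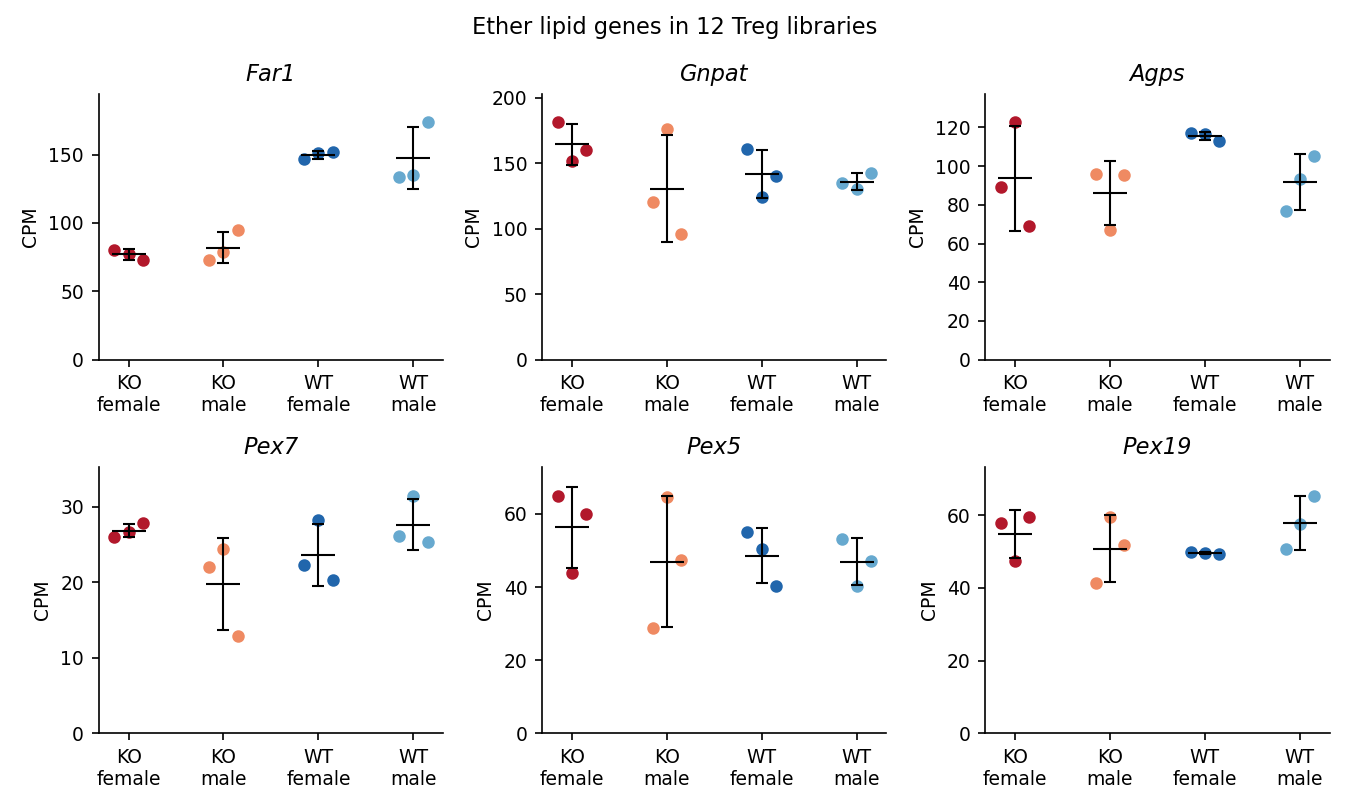
CPM (vertical axis) of the 6 genes in each library, by titled group. Points are libraries, ordered by replicate number, and black bars are the mean ± SD of 3 libraries. For Far1 the KO libraries (72.6 to 94.6 CPM) lie below the WT libraries (133 to 174 CPM), and for the other 5 genes the KO and WT libraries overlap.

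Of the 5 members other than Far1, 0 passed an adjusted p of 0.05 in either direction for the difference between genotypes, taken as the mean over both titled sexes. Over all 13692 genes tested the share that passed was 1.50%, with 0.606% higher and 0.898% lower (83 and 123 genes, against 109 higher and 87 lower with upper quartile scaling), so 0 of 5 is no departure from that background. The background itself moved with single libraries, from 206 genes called to 12 without KO female 3 and 543 without KO male 2, while none of the 5 passed in any of those fits. The unadjusted p was under 0.05 for 0 of the 5 as well, and DESeq2, limma voom and limma-trend each called 0. The 95% intervals of the 5 ran from -0.51 at the lowest, for Agps, to 0.49 at the highest, for Pex5. A difference inside the interval of a gene was not excluded by these libraries. Groups that did not overlap were seen in 1 of the 6 members, Far1 itself, and in 1.43% of all genes tested with KO lower. That count only restates how Far1 was chosen.

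**Figure D2:**
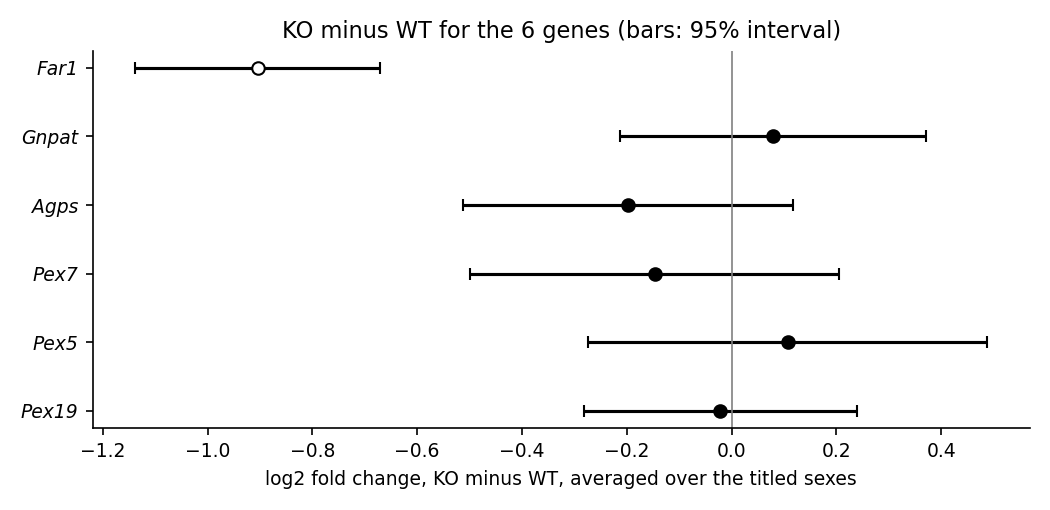
Log2 fold change of KO minus WT, mean of both titled sexes, (horizontal axis) for the 6 genes, with 95% intervals from the edgeR fit. The open point marks Far1 (-0.90), which was chosen on this contrast and is not tested. Its interval takes no account of that choice. The 5 filled points lie between -0.20 and 0.11, with intervals that cross 0.

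Set against the other genes within the same library, Far1 was low in most KO libraries. The ratio of Far1 to Pex19 CPM was 1.23 at the lowest, 1.51 at the median and 1.83 at the highest in KO libraries, against 2.34, 2.80 and 3.07 in WT libraries. For Far1 to Agps the lowest, median and highest ratios were 0.630, 0.946 and 1.17 in KO libraries and 1.25, 1.39 and 1.74 in WT libraries. Neither of these ratios overlapped between genotypes. Far1 was chosen for its fall in KO and neither Pex19 nor Agps passed, so lower ratios in KO restate that choice. The ratio to each of the other 3 genes was below every WT library in 5 of 6 KO libraries. KO male 3 was the exception for Gnpat (0.988) and for Pex7 (7.33), where its own Gnpat and Pex7 were the lowest of all libraries, and KO male 1 was the exception for Pex5 (2.53), where its Pex5 was the lowest. A ratio within a library shows unequal levels and does not say which of the genes differs.

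**Figure D3:**
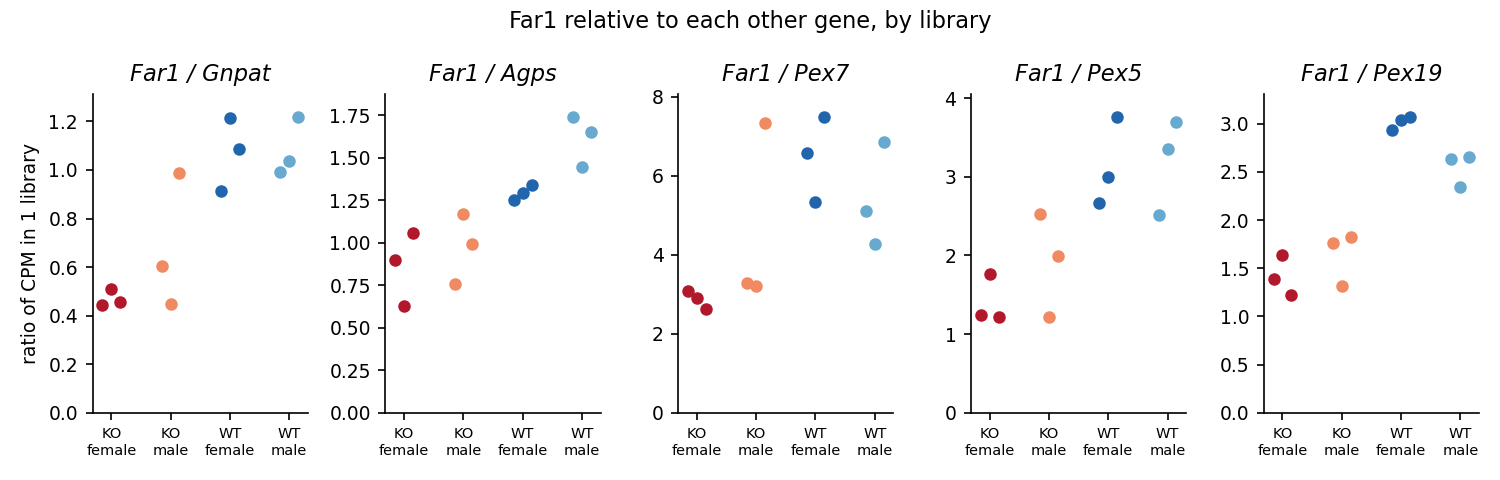
Ratio of Far1 CPM to that of each other gene (vertical axis, starting at 0) in each of 12 libraries, by titled group. For Pex19 all KO libraries (at most 1.83) lie below all WT libraries (at least 2.34). For Gnpat and Pex7 the library KO male 3 lies among the WT libraries. Far1 was chosen for its fall in KO, which every ratio carries.

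Per kilobase of annotated exon, Far1 stood lower among the members in KO than in WT libraries. Far1 was chosen for its fall in KO, so this shift in order restates that choice. Gnpat had the highest level per length in all 12 libraries, at 41.1 ± 9.28 CPM per kilobase in KO and 38.7 ± 3.53 in WT libraries (SD, n = 6 each), and Pex7 the lowest in all 12, at 1.93 ± 0.454 in KO and 2.12 ± 0.333 in WT libraries. Far1 ranked 4 or 5 of the 6 genes in each KO library, at 9.86 ± 1.002 CPM per kilobase, and 2 in each WT library, at 18.4 ± 1.81. Pex19 (13.9 ± 1.95 in KO and 14.1 ± 1.71 in WT), Pex5 (13.1 ± 3.62 in KO and 12.1 ± 1.60 in WT) and Agps (9.55 ± 2.18 in KO and 11.01 ± 1.69 in WT) were neighbours in that order. In KO libraries the spreads of Far1 and Agps overlapped, with Agps below Far1 in 4 of 6 libraries. Lengths are those of all annotated exons together, which are longer than the transcripts in use where a gene has several ends, so the order between genes depends on the annotation.

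The spread within a genotype also differed among the members. The coefficient of variation of Far1 was 10.2% over the 6 KO libraries and 9.83% over the 6 WT libraries. It was 22.6% in KO and 9.14% in WT for Gnpat, 22.8% in KO and 15.4% in WT for Agps, 23.5% in KO and 15.7% in WT for Pex7, 27.6% in KO and 13.2% in WT for Pex5, and 14.1% in KO and 12.1% in WT for Pex19. These spreads were not tested against each other. The KO male libraries were the most spread for Gnpat (31.4%), Pex7 (30.7%) and Pex5 (38.2%).

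Within each titled sex, 0 of the 5 other members passed with edgeR. In females (KO minus WT) their log2 fold changes ran from -0.30 (Agps) to 0.21 (Gnpat), with 0 at an unadjusted p under 0.05, and 0% of all 13692 genes passed, while 1055 genes had an unadjusted p under 0.05. DESeq2 also called 0 of the 5. With limma voom and quality weights, which called 12.4% of all genes in this comparison, Agps was lower by a log2 fold change of -0.50 (SE 0.13, limma adjusted p = 0.0180), against -0.30 and an adjusted p of 0.774 with edgeR. In males the 5 ran from -0.48 (Pex7, edgeR adjusted p = 0.374) to 0.00 (Pex5), 0 had an unadjusted p under 0.05, DESeq2 and limma voom called 0, and the background was 0.0730%, with 0.0584% higher and 0.0146% lower. The 95% interval of Pex7 in males was wide, -0.98 to 0.02. All 3 KO males were below all 3 WT males for Pex7, with KO male 3 lowest. Groups that did not overlap were seen for 1 of the 5 members in males (Pex7), beside 7.45% of all genes lower in KO and 6.95% higher, and for 0 of the 5 in females, beside 11.8% lower and 9.20% higher.

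Comparisons of the sexes and the interaction gave no difference in Far1 that passed. Far1 was chosen for its fall in KO, not on these comparisons. A fall in every KO library leaves less room for such differences, so they are not wholly independent of that choice. Female minus male, its log2 fold change was 0.02 in WT (SE 0.15, 95% interval -0.30 to 0.35, edgeR adjusted p = 0.985) and -0.09 in KO (SE 0.15, 95% interval -0.42 to 0.24, edgeR adjusted p = 0.921). The interaction (the difference between genotypes in females, less the same difference in males) was -0.11 (SE 0.22, 95% interval -0.58 to 0.35, edgeR adjusted p = 0.954). For all 6 members together, 0 passed in each of these 3 comparisons by edgeR, DESeq2, limma voom or limma-trend, 0 had an unadjusted p under 0.05, and 0% of all genes tested passed with edgeR. Genes with an unadjusted p under 0.05 numbered 893 for female minus male in WT, 722 for female minus male in KO and 659 for the interaction. Groups did not overlap in WT for Agps, higher in females, and Pex19, lower in females, beside 7.55% of all genes higher and 8.13% lower, and in KO for Pex7, higher in females, beside 3.64% higher and 3.35% lower. Without the 4 libraries that go against their titled sex, Far1 female minus male in KO was -0.31 and its interaction -0.33. The largest interaction estimate among the members was that of Pex7, at 0.66 (SE 0.33, edgeR adjusted p = 0.900). Since 4 libraries go against their titled sex, these comparisons do not separate female from male mice cleanly.

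The wider pathway was read from 6 lists that hold 71 further genes, of which 70 were found by symbol and 66 were tested. Averaged over the sexes, 0 of the 66 passed with edgeR in either direction, beside 1.50% of all genes, and 0 of the 66 passed with edgeR in any of the other comparisons. By other tools, limma voom called 11 of the 66 in females, beside 12.4% of all genes. For female minus male in WT it called 2 of the 66, beside 348 of all genes tested. DESeq2 called 2 of the 66 in males, beside 420 of all genes, and 1 for female minus male in WT, beside 30 of all genes. At an unadjusted p under 0.05 there were 13 of 66, or 19.7%, 7 higher and 6 lower, against 15.9% of all genes. The median log2 fold change of the 66 was 0.02, beside 0.02 over all genes tested, with 34 positive and 32 negative. DESeq2 called 4 of them (Pcyt2, Pex10 and Scd1 higher, Ide lower) where it called 4.71% of all genes, and limma voom called 6 (Pcyt2 higher, Abcd3, Acsl4, Dnm1l, Ide and Scp2 lower) where it called 4.36%. With edgeR but without KO male 2, 4 passed (Pcyt2 higher, Abcd3, Cat and Ide lower), beside 3.79% of all genes, and without a filter on low counts 1 passed (Scd1), beside 2.55%.

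Among the other ether lipid enzymes, 12 of 13 were tested, 7 were positive and 5 negative, and the median was 0.17. Pcyt2, which makes CDP-ethanolamine for the head group of ethanolamine plasmalogens, had 158 ± 26.3 CPM in KO libraries and 119 ± 15.4 CPM in WT libraries (SD, n = 6 each), a log2 fold change of 0.40 (SE 0.12, edgeR adjusted p = 0.102). Lpcat2, an acyltransferase that also makes platelet-activating factor, was at 2.69 ± 1.89 CPM in KO and 1.10 ± 0.635 CPM in WT libraries (log2 fold change 1.39, edgeR adjusted p = 0.204). Far2, the paralog with the same reductase activity as FAR1, was at 5.12 ± 3.00 CPM in KO and 6.95 ± 1.25 CPM in WT libraries, with a log2 fold change of -0.44 (edgeR adjusted p = 0.614). The highest library for Far2 was at 8.73 CPM in KO and at 8.41 CPM in WT. Tmem189, now named Peds1, which introduces the vinyl ether bond of plasmalogens, was at 105 ± 8.69 CPM in KO and 98.9 ± 4.59 CPM in WT libraries (log2 fold change 0.09, edgeR adjusted p = 0.706). Dhrs7b, the reductase of the step after AGPS, was at 39.3 ± 3.43 CPM in KO and 32.04 ± 3.60 CPM in WT libraries (log2 fold change 0.30, edgeR adjusted p = 0.233). Far2, Tmem189 and Dhrs7b were singled out for their place in the pathway, after their values were seen.

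Genes that supply acyl chains or remove fatty aldehydes had 12 of 13 tested, with 4 positive, 8 negative and a median of -0.06. Acsl4, an acyl-CoA synthetase, had 52.9 ± 12.8 CPM in KO libraries and 73.4 ± 13.5 CPM in WT libraries, and its log2 fold change was -0.47 (SE 0.15, edgeR adjusted p = 0.148). Scd1, a desaturase, was at 4.69 ± 2.61 CPM in KO and 2.66 ± 3.53 CPM in WT libraries, a log2 fold change of 1.88 (SE 0.58, edgeR adjusted p = 0.129). Both genes overlapped between genotypes.

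For import of matrix proteins 7 of 8 genes were tested, 6 were positive, and the median was 0.22. Pex10, a ubiquitin ligase that recycles PEX5, had 15.2 ± 2.13 CPM in KO libraries and 10.2 ± 2.07 CPM in WT libraries, a log2 fold change of 0.57 (SE 0.19, edgeR adjusted p = 0.144). The groups of Pex10 did not overlap, though by a small margin, with a lowest KO library of 12.4 CPM and a highest WT library of 12.3 CPM. Pex6, an ATPase of the same cycle, was at 104 ± 13.5 CPM in KO and 85.7 ± 10.5 CPM in WT libraries (log2 fold change 0.28, edgeR adjusted p = 0.267). Pex2 was not matched by symbol and is not analysed here.

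For membrane assembly and division 10 of 11 genes were tested, 6 were positive, and the median was 0.04. Dnm1l, a dynamin that divides peroxisomes and mitochondria, was at 108 ± 13.4 CPM in KO and 136 ± 6.37 CPM in WT libraries (log2 fold change -0.33, SE 0.10, edgeR adjusted p = 0.135). Pex3, the membrane docking factor of PEX19, was at 45.5 ± 8.05 CPM in KO and 54.7 ± 1.93 CPM in WT libraries (log2 fold change -0.27, SE 0.13, edgeR adjusted p = 0.341). Pex3 did not overlap between genotypes, with a highest KO library of 51.4 CPM and a lowest WT library of 52.1 CPM.

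Peroxisomal fatty acid oxidation had 17 of 18 genes tested, 7 positive and 10 negative, with a median of -0.07. Scp2, whose long form is a peroxisomal thiolase, had 198 ± 15.4 CPM in KO libraries and 245 ± 28.4 CPM in WT libraries without overlap (log2 fold change -0.30, SE 0.10, edgeR adjusted p = 0.166). Abcd3, an importer of long-chain acyl substrates, was at 29.8 ± 7.19 CPM in KO and 39.6 ± 2.44 CPM in WT libraries (log2 fold change -0.43, SE 0.14, edgeR adjusted p = 0.131). The other matrix enzymes had 8 of 8 tested, 4 positive and 4 negative, with a median of -0.09. Ide, an insulin-degrading protease that is also found in peroxisomes, had the smallest p of all 66, with 163 ± 23.96 CPM in KO and 220 ± 27.7 CPM in WT libraries and a log2 fold change of -0.44 (SE 0.12, edgeR adjusted p = 0.0829). Lonp2, a peroxisomal protease, was at 171 ± 22.8 CPM in KO and 206 ± 22.4 CPM in WT libraries (log2 fold change -0.27, edgeR adjusted p = 0.265). Over the 66 genes, groups did not overlap in 2 with KO lower (3.03%, beside 1.43% of all genes) and in 1 with KO higher (1.52%, beside 0.971%), which is close to the background for counts this small.

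**Figure D4:**
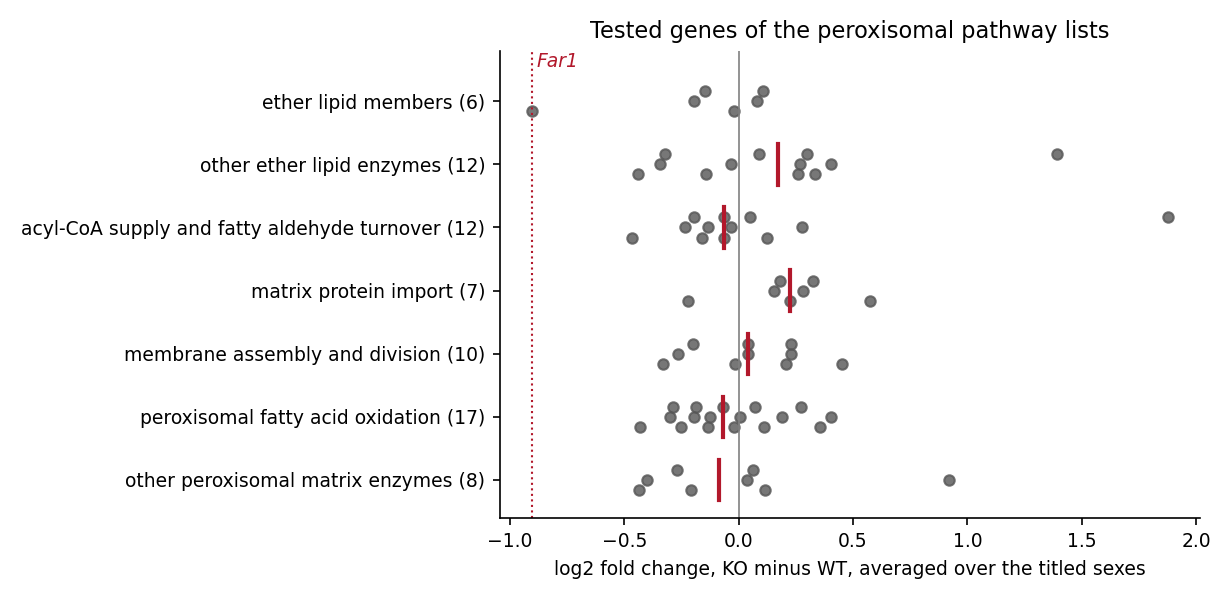
Log2 fold change of KO minus WT, mean of both titled sexes, (horizontal axis) for each tested gene of the member list and of 6 further lists, with the number of tested genes in parentheses. Points are genes, red bars are list medians (-0.09 to 0.22, not drawn for the members), and the dotted line marks Far1 at -0.90. No gene of the 6 further lists lies as low as Far1, the lowest being Acsl4 at -0.47. Far1 was chosen for its fall in this contrast, so it is no yardstick for the lists.

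None of the genes beside Far1 on chromosome 7 passed. Of the 3 nearest tested genes on each side by the GENCODE M21 annotation, 0 of 6 passed with edgeR (adjusted p between 0.451 and 0.914), again beside 1.50% of all genes. Btbd10 and the clock gene Arntl, 144 and 200 kilobases (kb) before Far1, had log2 fold changes of -0.07 and -0.07, and Mical2, 1101 kb before it, one of 0.50. Spon1, Rras2 and Copb1, 194, 475 and 644 kb after it, had 0.68, -0.07 and -0.14. The annotation holds Far1os on the opposite strand, which shares 80 exonic bases with Far1 and has no row of its own in the count table. The library chemistry does not mark the strand, so reads from those bases could be counted for Far1. Gnpat shares 280 exonic bases with Gm16163 on the same strand, which has no row of its own either, so reads from it could be counted for Gnpat. It also shares 88 exonic bases with 2810004N23Rik on the opposite strand, which was at 45.9 CPM in KO and 46.2 CPM in WT libraries (log2 fold change -0.01, edgeR adjusted p = 0.973).

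The genes whose profile over the 12 libraries was most like that of Far1 came from outside the pathway. Likeness was the root mean square difference between log2 CPM, each gene centred on its own mean, over 10085 genes that averaged at least 5 CPM. The nearest 5 were the palmitoyltransferase gene Zdhhc2 (0.19), Cpne3 (0.19), the general transcription factor gene Gtf2a1 (0.20), the splicing regulator Mbnl1 (0.20) and Pcmtd1 (0.21). Zdhhc2 stood at 29.3 ± 4.41 CPM in KO libraries and 49.5 ± 8.41 CPM in WT libraries, and Mbnl1 at 773 ± 105 CPM in KO and 1233 ± 169 CPM in WT libraries. The other members lay farther from Far1, from 0.42 for Agps to 0.59 for Pex5. Among themselves, Gnpat, Pex5 and Pex19 were closer to each other (0.24 to 0.26) than any member was to Far1. The genes nearest to Gnpat were Frmd8 (0.09), Xrcc6 (0.11) and Bap1 (0.11). Far1 was chosen for being lower in KO libraries, so genes without such a difference must lie far from it. Its nearest genes were likewise lower in KO. Since most candidates are outside the pathway, the distances from Far1 do not test the pathway.

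Markers of other cell types moved with the titled genotype, as did depth. Of 10 B-cell markers, all 10 were positive and 7 passed with edgeR in the average over the sexes, beside 0.606% of all genes higher. Their summed level was 176 to 406 CPM in KO and 39.9 to 227 CPM in WT libraries, and the most abundant were Cd79b (KO 69.6 ± 15.1 CPM, WT 41.9 ± 8.30 CPM) and Cd22 (41.9 ± 21.3 CPM in KO and 13.2 ± 15.99 CPM in WT). Of 8 neutrophil markers 5 were tested and 4 passed, all higher, beside the same 0.606% of all genes. The 4 that passed had at most 0.334 CPM in any WT library, so they could pass the count filter only through KO libraries. Their direction was thereby set by the filter and is no separate result. The summed level of the 8 was 1.78 to 52.5 CPM in KO and 0 to 0.820 CPM in WT libraries, led by Ltf (KO 4.87 ± 7.16 CPM, WT 0.264 ± 0.218 CPM) and Ngp (3.83 ± 4.36 CPM in KO and 0.00976 ± 0.0239 CPM in WT). No marker of either list was at 0 in every library. Libraries in the overlap of the B-cell sums were looked at after the data were seen, and the neutrophil sums have no such overlap. WT female 1 had a B-cell sum of 227 CPM and 147 CPM of Far1, while KO female 1 and KO male 2, with lower B-cell sums of 185 and 176 CPM, had 80.5 and 78.5 CPM of Far1.

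Other marker sums overlapped between genotypes except one. Macrophage and monocyte markers, led by Lyz2 and Csf1r, summed to 123 to 343 CPM in KO and 16.4 to 288 CPM in WT libraries. The sums were 12.7 to 23.7 CPM in KO and 4.41 to 24.5 CPM in WT libraries for dendritic cell markers, led by Zbtb46 and Siglech, and 44.2 to 107 CPM in KO and 35.9 to 65.5 CPM in WT libraries for CD8 and NK cell markers, led by Cd8b1 and Klrb1c. Stromal and endothelial markers (Cxcl13 and Col1a2) summed to 4.25 to 30.8 CPM in KO and 1.34 to 4.01 CPM in WT libraries and did not overlap. None of the markers tested in these 4 lists passed. The part of these cell types, B cells and neutrophils included, in the Far1 difference was not tested. For depth, KO female 1 (14786400 counts) and KO male 2 (14050200) were deeper than WT female 3 (13439600, with 152 CPM of Far1). With every library thinned to the shallowest the log2 fold change of Far1 was -0.89. Thinning keeps the expected share of each gene in its library, so this value cannot decide the part of depth. Both the 3 libraries and the thinning were chosen after seeing the data, and the part of depth in the Far1 difference was not tested.

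**Figure D5:**
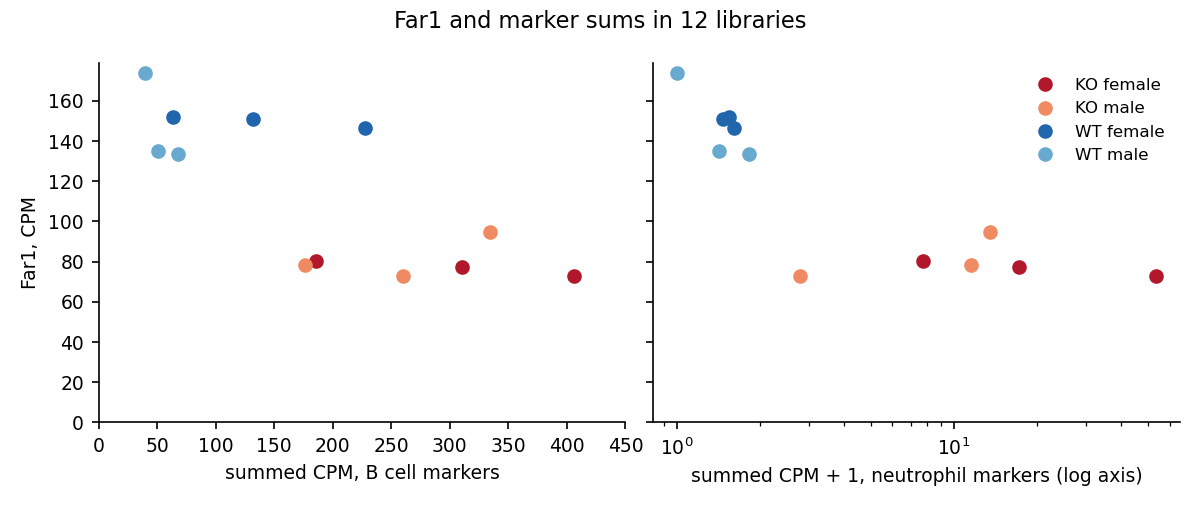
Far1 CPM (vertical axis) against the summed CPM of 10 B-cell markers (left) and against the summed CPM + 1 of 8 neutrophil markers on a log axis (right), 1 point for each of 12 libraries. B-cell sums overlap between KO (176 to 406 CPM) and WT (39.9 to 227 CPM), and neither neutrophil sums nor Far1 overlap. The part of either cell type in the Far1 difference was not tested.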

How the data were processed

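Per the labels' protocols, a NucleoSpin XS kit gave the RNA, and SMART-Seq v4 with Nextera XT gave the libraries. The authors deposited raw counts per gene symbol and log2 CPM values. The submitters' processing notes name build GRCm38 and, with no order, HISAT2 2.0.5, edgeR, Subread and featureCounts 1.5.0-p2, and say nothing here of annotation release or strand. The deposited log2 values equalled CPM recomputed from the counts with TMM scaling and a prior count of 0.25 to within 5.0e-14.

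The members and lists were chosen with earlier results of these data known. filterByExpr kept 13692 genes and at least 99.8% of each library's counts. An edgeR quasi-likelihood model (R 4.3.3, edgeR 4.0.16) of 4 group means with TMM scaling and robust dispersion was fitted to all 12 libraries. Its code was run on simulated counts with the same spread for every gene and no outlying library. That run checks the code and not how the model suits these libraries. Tests were two-sided, with Benjamini-Hochberg adjustment over all genes tested and a threshold of 0.05. SE and 95% intervals came from the quasi-likelihood F statistic. CPM use TMM-scaled library sizes. DESeq2 1.42.0 and limma 3.58.1 (voom with quality weights, and limma-trend on the deposited log2 values) were alternatives.

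WT male 2 and WT male 3 carry the same title number and were kept as separate libraries. Named genes were the 6 members, Esr2 and Foxp3, the 2 genes of each list with the smallest p among those averaging at least 1 CPM, the nearest neighbours and profiles, and the 2 most abundant markers of each list. Esr1, also on that rule, was at 2.44 ± 0.946 CPM in KO and 2.81 ± 1.33 CPM in WT libraries (SD, n = 6 each). Exon lengths and coordinates are from GENCODE M21 (GRCm38), whose symbols covered 88.3% of the genes tested. Promoter windows are from RefSeq (GRCm38.p6), with an entry for 5 of the 6 members and none for Pex19.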

Additional observations from a re-analysis of the deposited data

Results flagged for a closer look

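Far1 in the library KO male 3 was at 94.6 CPM, apart from the other 5 KO libraries, of which the next highest, KO female 1, was at 80.5 CPM. The gap was 0.643 of the range of the 6 KO libraries, above Dixon's 95% critical value for 6 values. Chance flags about 5% of such sets, and 12 sets (6 genes in each titled genotype) were examined. Without KO male 3 the log2 fold change of Far1, KO minus WT averaged over the sexes, was -0.97, against -0.90 with it.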

How the results depend on the processing

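The log2 fold change of Far1, KO minus WT averaged over the sexes, stayed between -0.97 and -0.83 in 22 alternative fits. It was -0.97 without KO male 3 and -0.84 without WT male 3 at the ends of the 12 fits that each leave out 1 library, and -0.83 without the 4 libraries against their titled sex, which leave KO males with 1 library that is assumed to vary like the other groups. The other 5 members passed in 0 of the 22 fits, and the cause of the sign changes in values near 0 was not tested. Pex7 was -0.39 and Gnpat -0.24 without those 4 libraries, and Gnpat ran from -0.0597 (without KO male 2) to 0.17 with 1 library left out, Pex19 was 0.0198 with upper quartile scaling and ran from -0.0875 to 0.0405, and Agps, Pex7 and Pex5 ran from -0.32 to -0.11, -0.24 to -0.04 and -0.0471 to 0.23. Far1 female minus male in WT was -0.0051 with upper quartile scaling and ran from -0.0424 to 0.16, in KO from -0.17 to 0.0275, and its interaction from -0.25 to 0.0011, while without the 4 libraries these were -0.31 in KO and -0.33 for the interaction.

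The number of genes called over all genes was far less stable than these values. For the average over the sexes, 206 became 627 without a low-count filter, 644 with DESeq2, 597 with limma voom, 14 without the 4 libraries and 31 with WT male 2 and 3 summed. With 1 library left out it ran from 12 (KO female 3) to 543 (KO male 2), with 23, 26, 39, 46, 53, 60 and 86 without WT male 3, WT female 3, WT male 2, WT female 2, KO female 1, WT female 1 and KO male 3. In females, 0 became 132, 22 and 1698 with those first 3 changes with 2 without WT female 3 and 0 in the other 11 such fits. In males, 10 became 443 without the filter, 420 with DESeq2, 0 with limma voom, 135 without the 4 libraries, 0 with the sum and 24 in the 6 male libraries alone, and ran from 0 (any WT male, KO male 1 or KO male 3) to 734 (KO male 2), with 49, 5, 6 and 6 without WT female 3, WT female 2, KO female 2 and KO female 3. Female minus male, 0 became 191, 30 and 348 in WT with those 3 changes and 5 without the 4 libraries, with 38, 33 and 1 without WT female 3, WT male 3 and KO female 3, and in KO 63 without the filter and 5 without the 4 libraries, running to 324 without KO male 2. The interaction count of 0 became 106 without the filter and 3 with DESeq2, with 4 without KO male 2 and 1 without WT female 3. Thinning to the shallowest library, chosen after seeing the data, gave 193 for the average.

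With the title number as a replicate block, 9 genes were called in the average over the sexes and 0 in males. Deviations of same-numbered libraries correlated at -0.21 to 0.13, over 0.1 in 1 of 18 pairs, and 2 of 12 libraries were closest to one of their own number. WT male 3 was counted under its titled number 2. No pairing by number was seen, but with 3 libraries in each group the check cannot exclude it.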
